A study of Mus musculus with 8 samples.

Results

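The densest clusters of open chromatin in splenic conventional dendritic cells were 500 genomic windows of 50 kb, chosen from 26417 windows on mouse autosomes 1 to 19 that held any called summit. They were the windows with the highest mean number of summits over 8 ATAC-seq libraries, in which the Tn5 transposase marks open chromatin and a summit is the point of strongest signal in a called peak. Each library entered with its 61737 summits of highest score, so that all libraries carried equal weight. Ties were settled by chromosome and then position.

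The libraries formed 4 groups of 2, and all mice carried a floxed Hdac1 gene, which encodes a histone deacetylase. KO cDC2 and KO cDC1 came from mice that also carried Mx1-Cre, and WT cDC2 and WT cDC1 came from floxed mice labelled without Cre. All mice, WT included, received poly I:C, which switches on the interferon-responsive Mx1 promoter and so acts on many cell types besides dendritic cells, and cells were sorted from spleen 2 weeks later. After removal of lineage-positive and CD64+ cells, CD11c+MHCII+ cells were sorted as XCR1-CD11b+ (cDC2, type 2 conventional dendritic cells) or XCR1+CD11b- (cDC1, type 1). The ages of the mice are not in the labels, nor do they say whether the libraries of a group came from different mice. The p-values therefore rest on the spread among these 8 libraries, which may be technical.

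The cDC1 take up dead cells and present their antigens to CD8+ T cells, whereas cDC2 mainly prime CD4+ T cells. Clusters of open sites close together on a chromosome often hold the promoters and enhancers of genes that a cell type uses heavily, and lineage factors such as PU.1, IRF8 and the AP-1 family bind many such sites in dendritic cells. Histone deacetylases such as HDAC1 remove acetyl groups from histones at active promoters and enhancers.

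The lists as deposited held 61737 to 78296 summits in cDC2 and 74963 to 96031 in cDC1, with read depth not given, so no counting interval can be attached to a value. Hdac1 itself had 1 or 2 summits nearest to it in every library, which gives no check of the deletion. The summed summits near 8 markers of each subset differed between the sorted subsets. The cDC1 markers summed to 41 to 45 summits in cDC2 libraries and 66 to 69 in cDC1 libraries, and the cDC2 markers to 62 to 65 in cDC2 libraries and 46 to 53 in cDC1 libraries. Xcr1 and Clec9a, defining genes of cDC1, were at 0 in all 8 libraries. A summit counted only for the protein-coding gene nearest to it, so a 0 does not show that the locus held no summit. The cDC1 markers Batf3 (mean 9.5 summits in cDC2 and 8.25 in cDC1) and Itgae (6.25 and 5.5) were higher in cDC2, and the cDC2 markers Itgam (8.0 and 8.5) and Cx3cr1 (5.25 and 5.5) were lower there. Markers of other cells summed to 16 to 21 in cDC2 and 19 to 20 in cDC1 for B cells (5 genes), 5 to 10 and 4 to 9 for T cells (5 genes, Cd3g at 0), and 30 to 34 and 21 to 28 for plasmacytoid dendritic cells (4 genes). They summed to 14 to 16 in cDC2 and 12 to 15 in cDC1 for NK cells (4 genes, Nkg7 at 0), 17 to 19 and 15 to 19 for macrophages and monocytes (5 genes), 2 to 3 and 3 to 5 for granulocytes (5 genes, Elane and Mpo at 0), and 2 to 5 and 2 to 3 for erythroid cells (4 genes, Gata1 and Hbb-bs at 0). Gata1 lies on the X chromosome, where no summit was counted, so its 0 was fixed in advance. The part of these other cells in the results was not tested.

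The 500 windows held a mean of 7.5 to 14.125 summits, with a median of 8.25. The median was 2.5 over the 19182 windows with a mean of at least 1 summit, which were the windows tested below and of which the 500 made up 2.61%. All 500 passed that filter. At least 10 summits on average were found in 61 of them. The border fell inside a group of 39 windows with a mean of exactly 7.5, of which 30 were taken and 9 were not. The last inside were led by Plek2, Itpk1 and Asb2 and the first outside by Serpinb1c, Fgd3 and Tep1, all with a mean of 7.5. The leading gene is the protein-coding gene nearest to more summits of a window than any other, with ties settled by gene start. It need not be nearest to most of them. Over the 8 libraries it was nearest to 29 of 76 summits in the Prss16 window and 14 of 91 in the Zfp36l2 window. A window can also lie outside its leading gene.

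Every one of the 500 windows held at least 4 summits in every library. The share of a library's summits that lay in them was 7.10% and 6.78% in KO cDC2, 7.14% and 6.82% in WT cDC2, 7.04% and 6.70% in KO cDC1, and 7.16% and 7.14% in WT cDC1. These shares are a description, since the windows were chosen by the same counts. Neighbouring summits within a window of a library lay a median of 4088 bp apart, compared with 7140 bp in all other windows. This spacing also follows from the choice of windows. The scores of summits in the 500 windows ranked higher in their libraries than those of other summits. The median rank lay 43.0% to 45.7% of the way down the list in the 500 windows and 50.3% to 50.6% down in other windows. The lists were cut by these same scores before the windows were chosen, so this too is a description.

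The promoters of 7 leading genes of the 12 densest windows held a summit in all 8 libraries. The 5 of these genes with a single promoter in the table are shown as the 250 bases before the start site, together with the promoter of H2bc11 from the window that differed most between the subsets in favour of cDC2. The 5 stand here as the DNA under the densest clusters, from a histone gene, MHC class II and signalling genes. The window of H2bc11 ranked 93 by mean. Capitals mark matches, on either strand, to CRE (TGACGTCA), AP-1 (TGANTCA), PU.1 (GAGGAAGT), an ETS-IRF composite (GGAA and GAAA with any 2 bases between), ISRE (GAAA and GAAA with any 2 bases between), the CCAAT box (CCAAT), the GC box (GGGCGG) and the TATA box (TATAAA). The sequences are from RefSeq, build GRCm38.p6, and read 5′ to 3′ along the gene.
H2-Aa promoter, chr17:34287824-34288073, minus strand: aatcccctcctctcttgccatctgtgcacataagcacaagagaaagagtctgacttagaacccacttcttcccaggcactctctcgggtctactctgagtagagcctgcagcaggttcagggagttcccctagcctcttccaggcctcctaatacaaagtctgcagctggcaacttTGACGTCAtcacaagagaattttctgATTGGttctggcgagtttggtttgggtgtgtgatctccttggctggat
Ier5 promoter, chr1:155099637-155099886, minus strand: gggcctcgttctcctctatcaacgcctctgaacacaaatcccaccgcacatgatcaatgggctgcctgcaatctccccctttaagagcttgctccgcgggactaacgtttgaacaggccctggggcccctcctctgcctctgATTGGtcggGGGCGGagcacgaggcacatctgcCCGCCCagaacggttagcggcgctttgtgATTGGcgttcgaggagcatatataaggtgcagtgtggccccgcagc
Dapp1 promoter, chr3:137981550-137981799, minus strand: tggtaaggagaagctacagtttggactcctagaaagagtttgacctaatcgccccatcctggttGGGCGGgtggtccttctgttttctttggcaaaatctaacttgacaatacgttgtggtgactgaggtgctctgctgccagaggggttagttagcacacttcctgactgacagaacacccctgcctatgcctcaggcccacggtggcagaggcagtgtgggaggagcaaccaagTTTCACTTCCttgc
Gpr132 promoter, chr12:112860917-112861166, minus strand: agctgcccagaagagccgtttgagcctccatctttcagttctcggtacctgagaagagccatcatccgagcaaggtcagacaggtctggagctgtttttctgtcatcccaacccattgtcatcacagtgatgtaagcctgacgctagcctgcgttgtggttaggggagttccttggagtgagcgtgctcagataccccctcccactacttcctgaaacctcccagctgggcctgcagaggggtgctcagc
H4c8 promoter, chr13:23530794-23531043, plus strand: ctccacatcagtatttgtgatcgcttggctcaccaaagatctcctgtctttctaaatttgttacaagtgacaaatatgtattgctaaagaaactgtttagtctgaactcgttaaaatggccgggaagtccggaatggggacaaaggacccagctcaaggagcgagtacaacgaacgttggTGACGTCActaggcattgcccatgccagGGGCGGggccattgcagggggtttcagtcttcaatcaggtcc
H2bc11 promoter, chr13:22042948-22043197, plus strand: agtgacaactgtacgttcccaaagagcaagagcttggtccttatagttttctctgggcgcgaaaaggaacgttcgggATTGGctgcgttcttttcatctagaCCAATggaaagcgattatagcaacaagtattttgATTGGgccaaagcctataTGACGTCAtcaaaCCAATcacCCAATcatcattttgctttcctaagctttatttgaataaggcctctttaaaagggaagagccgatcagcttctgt

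In the promoter of H2-Aa, which encodes the alpha chain of the MHC class II molecule I-A, the CRE match began 74 bases before the start and a CCAAT box on the other strand began at 48 bases. MHC class II promoters are known to carry X and Y boxes bound by RFX, CREB and NF-Y factors, with which CIITA then associates. H4c8, an H4 histone gene, had a CRE match at 70 bases and a GC box at 42 bases before its start. H2bc11, an H2B histone gene, had a CRE match at 96 bases and 5 CCAAT boxes. Ier5, an immediate early response gene, had 2 CCAAT boxes and 2 GC boxes, and Dapp1, an adaptor in phosphoinositide 3-kinase signalling, had an ETS-IRF composite match 14 bases before its start. Gpr132, which encodes a lipid-sensing G protein-coupled receptor, had no match to any of the 8 motifs in these bases.

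Across all promoters the match shares differed between motifs. Of 1141 promoters in the 500 windows, 44.4% held a GC box and 2.45% a CRE, compared with 32.7% and 1.55% of 30077 promoters elsewhere on the autosomes. The CCAAT box was found in 32.3% and 33.7%, the TATA box in 7.19% and 12.5%, AP-1 in 5.96% and 6.78%, PU.1 in 3.51% and 2.44%, the ETS-IRF composite in 1.75% and 2.36%, and ISRE in 2.72% and 2.99%. The PU.1 match and the ETS-IRF composite can overlap, as can the composite and ISRE. A summit lay within 1 kb of the start in all 8 libraries at 66.0% of promoters in the 500 windows and 36.6% elsewhere. Among promoters with such a summit, a GC box was found in 56.0% and 61.2% and a CRE in 2.92% and 2.92%. AP-1 was found in 5.31% and 3.77% of these, the TATA box in 6.37% and 5.28%, PU.1 in 3.45% and 2.82%, CCAAT in 35.2% and 34.9%, the ETS-IRF composite in 1.73% and 1.92%, and ISRE in 2.66% and 2.51%. For AP-1, the TATA box, the CCAAT box, ISRE and the GC box the order was the opposite of that over all promoters. The higher GC box and CRE shares of the 500 windows were thus not seen among promoters that were open in all libraries. These are shares of promoters, without a test.

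The densest window of all was led by Fosb, which encodes an AP-1 transcription factor induced by stimulation (chromosome 7, 19300001 to 19350000). It held 14 and 12 summits in KO cDC2, 15 and 14 in WT cDC2, 14 and 13 in KO cDC1, and 16 and 15 in WT cDC1. The subsets overlapped, and the KO and WT libraries met at 14. Of its 16 sites, where a site is a chain of summits from any library no more than 250 bp apart, 9 were found in all 8 libraries. The same window holds Ercc1, a DNA repair gene.

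The window of Slc29a1, an equilibrative nucleoside transporter, held 12 to 15 summits in cDC2 libraries and 12 to 13 in cDC1 libraries. It also overlaps Nfkbie, an inhibitor of NF-kB, Slc35b2 and Hsp90ab1. Cytip, a regulator of adhesion in activated leukocytes, led a window with 12 to 16 summits in cDC2 and 9 to 12 in cDC1. The Gpr132 window held 11 to 12 in cDC2 and 11 to 15 in cDC1, and the Dapp1 window 10 to 12 in cDC2 and 11 to 13 in cDC1. The Ier5 window held 11 and 9 in KO cDC2, 12 and 15 in WT cDC2, 11 and 11 in KO cDC1, and 12 and 13 in WT cDC1, so that each KO library was below each WT library. The window of Ankrd55 held 11 to 13 summits in cDC2 and 12 to 14 in cDC1. The ranges of the subsets overlapped or touched in each of these windows.

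**Figure D1:**
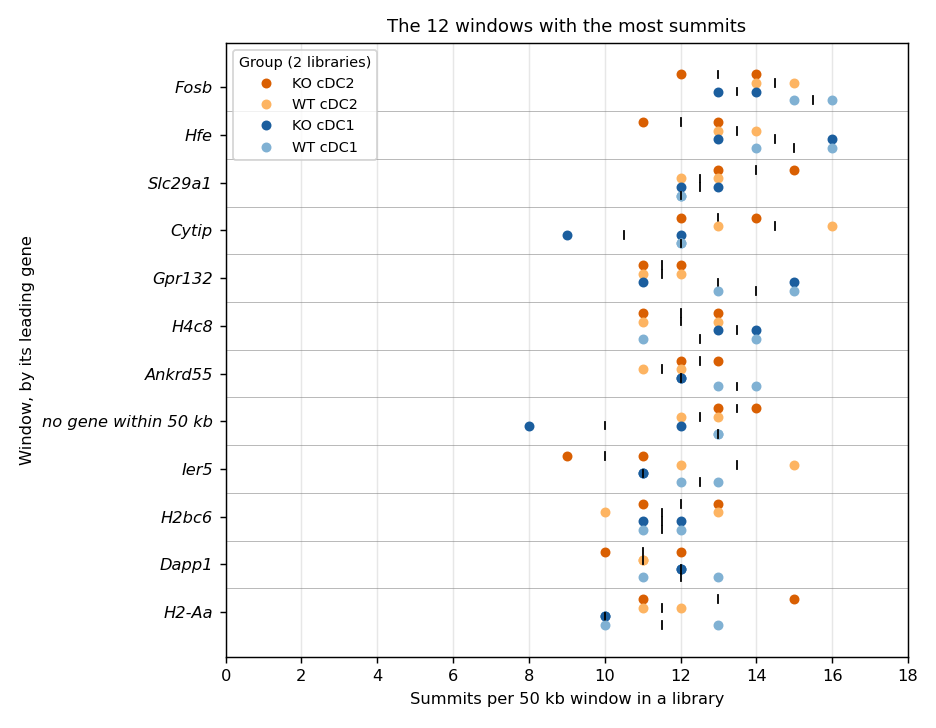
Summits per 50 kb window (x axis) in each library for the 12 windows with the highest mean, named by their leading genes (y axis, italic). Points are libraries, 2 per group, and black ticks are group means. The Fosb window held 12 to 16 summits in every library, and the groups overlap in most windows.

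The eighth densest window held no protein-coding gene within 50 kb of its summits (chromosome 8, 126800001 to 126850000). It had 13 and 14 summits in KO cDC2, 12 and 13 in WT cDC2, 12 and 8 in KO cDC1, and 13 and 13 in WT cDC1, and its nearest protein-coding gene, Tomm20, lay 80.7 kb away. The non-coding RNA genes Gm31718 and A630001O12Rik lie in it. In all, 20 of the 500 windows had no such gene within 50 kb, and they were chosen for mention after their values were seen. The nearest genes included Id2, a regulator that dendritic cells express (53.9 kb away, mean 9.875), Rgs1 (50.9 kb, mean 9), Prdm1, which encodes Blimp-1 (71.4 kb, mean 8.25), and Jun, an AP-1 factor (97.8 kb, mean 7.625).

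Histone gene clusters lay in several of the 500 windows. Of 67 annotated genes of the H1, H2A, H2B, H3 and H4 families there were 34 overlaps with 6 of the 500 windows, and 9 of the other tested windows held any. These are 1.2% and 0.0482% of windows. Replication-dependent histone genes are transcribed in S phase and lie in clusters, the major one on mouse chromosome 13, where all 6 windows were found. The windows led by Hfe (23700001 to 23750000), H4c8 (23500001 to 23550000) and H2bc6 (23550001 to 23600000) ranked 2, 6 and 10 among all windows by mean.

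The H2bc6 window holds 10 histone genes and had 13 and 11 summits in KO cDC2, 13 and 10 in WT cDC2, 12 and 11 in KO cDC1, and 12 and 11 in WT cDC1. The H4c8 window holds 5 histone genes and 13 tRNA genes and had 11 to 13 in cDC2 and 11 to 14 in cDC1. The Hfe window, named for an MHC class I-like regulator of iron uptake, holds 3 histone genes and had 11 to 14 in cDC2 and 13 to 16 in cDC1. The groups overlapped in all 3 windows. In the windows led by H4c11 and H1f1 there were 9 to 11 and 9 to 10 summits in cDC2, with 8 to 11 and 8 in cDC1. In the H1f1 window (chromosome 13, 23750001 to 23800000) every cDC2 library was above every cDC1 library. Histone and tRNA genes have near-identical copies, and how reads that map to several copies were counted is not given in the sources used here, so single summits in these clusters are uncertain.

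Other annotation also differed. The 500 windows overlapped a mean of 2.02 protein-coding genes, compared with 1.32 in the other tested windows, and 11% and 18.97% overlapped none. A long non-coding RNA gene lay in 54% and 37.4%, a microRNA gene in 8.6% and 3.4%, and a tRNA gene in 2.2% and 0.562%. The most in any of the 500 was 17 tRNA genes, in the window led by Abt1. By contrast the summits themselves sat at similar places. Within 1 kb of a start site lay 18.6% to 19.9% of a library's summits in the 500 windows and 18.5% to 20.3% of those elsewhere, and inside protein-coding genes 53.7% to 54.7% and 55.4% to 56.3%.

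The windows were grouped by 24 lists of genes, and for each list the share of its tested windows that were among the densest 500 was taken beside the 2.61% of all tested windows. That 2.61% also counts windows led by unlisted genes or by none. Listed genes as a whole led 733 tested windows, of which 63 were among the 500. The share of a single list is to be read beside that count too. For the list of pan-cDC and MHC class II genes this was 8 of 21 windows, or 38.1%. The H2-Aa window (chromosome 17, 34250001 to 34300000) held 15 and 11 summits in KO cDC2, 12 and 11 in WT cDC2, 10 and 10 in KO cDC1, and 13 and 10 in WT cDC1. The window next to it, led by H2-Eb1, which encodes an MHC class II beta chain, held 9 to 11 in cDC2 and 10 to 11 in cDC1. With the Btnl2 window these formed an unbroken run of 150 kb with 30.6 summits per library, 1 of 3 runs of 3 windows. In all, 435 of the 500 windows stood alone, 56 lay in pairs and 9 in such runs of 3.

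Ciita, the activator of MHC class II genes, led a window (chromosome 16, 10450001 to 10500000) with 9 and 10 summits in KO cDC2, 8 and 6 in WT cDC2, 13 and 11 in KO cDC1, and 13 and 12 in WT cDC1. Every cDC2 library was below every cDC1 library, at a log2 difference of -0.54 (SE 0.187, limma adjusted p = 0.0723), which did not pass. The window of Flt3, the receptor for the growth factor of dendritic cell precursors, held 8 to 10 summits in cDC2 and 9 to 13 in cDC1.

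AP-1 factors led 4 of 16 windows of their list, or 25%. Beside Fosb these were Batf3, a factor required for cDC1 (8 to 9 summits in cDC2 and 6 to 10 in cDC1), Fos (8 to 9 and 7 to 9) and Jdp2 (5 to 9 and 8 to 10). The Jdp2 window held 4 sites with summits in all cDC1 libraries but none in cDC2, and no window had more. Genes of costimulation and checkpoint led 7 of 30, or 23.3%. Among them Cd274, which encodes PD-L1, had 8 to 11 summits in cDC2 and 10 to 14 in cDC1, and Pdcd1lg2, which encodes PD-L2, 8 to 9 and 7 to 9. Cd83, a maturation marker, had 9 to 12 in cDC2 and 9 to 10 in cDC1, and Icam1, an adhesion ligand of LFA-1, 7 to 10 in both.

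Genes of the BCL2 family led 4 of 20 windows, or 20%. These were Mcl1, a survival factor, with 9 to 10 summits in cDC2 and 9 to 11 in cDC1, and the death-promoting Bmf (9 to 12 and 8 to 11), Pmaip1 (8 to 12 and 8 to 10) and Bid (6 to 8 and 8 to 9). Genes of actin, adhesion and migration led 10 of 103, or 9.71%, among them Selplg, the ligand of P-selectin (10 to 12 and 10 to 11), Actb (8 to 11 and 11 to 12), Wipf1 (9 to 13 and 9 to 12) and Lcp1 (7 to 11 and 7 to 11). Myeloid and dendritic cell transcription factors led 14 of 154, or 9.09%. The window of Zfp36l2, which overlaps no protein-coding gene, held 10 to 13 in cDC2 and 9 to 14 in cDC1. That of Nr4a1, an immediate early nuclear receptor, held 8 to 10 and 8 to 9.

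Among the other lists, the count was 4 of 45 windows for chemokine and cytokine receptors (led by Ccr6, Il4ra, Ifngr1 and Ccr7), 3 of 40 for cDC1 identity, 3 of 37 for cell cycle and growth arrest (Btg2, Ccnd3 and Ccnd1), 2 of 26 for NF-kB factors and inhibitors (Bcl3 and Traf1) and 2 of 23 for monocyte and macrophage (Nr4a1 and Cd14). It was 1 of 38 for cDC2 identity (Ccr6), 1 of 31 for plasmacytoid DC (Lair1), 1 of 28 for innate sensing (Irak2), 1 of 24 for STAT and SOCS signalling (Socs3), 1 of 21 for cytokines and chemokines (Osm) and 1 of 7 for NK cell (Klrb1c). No window of 6 further lists was among the 500. These were histone deacetylases and HDAC1 complexes (0 of 55), interferon-stimulated (0 of 16), T cell (0 of 15), B cell (0 of 13), granulocyte (0 of 8) and erythroid and megakaryocyte (0 of 4). A gene can be on more than 1 list, and a share is a description of where the members lie.

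Some genes led several windows. Etv6, a transcription factor of the ETS family, led 3, chosen for mention after their values were seen. The one from 134200001 on chromosome 6 held 8, 8, 9 and 8 summits in cDC2 and 13, 12, 13 and 11 in cDC1 (KO before WT), with every cDC2 library below every cDC1 library. The one from 134100001 held 9, 9, 8 and 10 in cDC2 and 9, 5, 6 and 7 in cDC1. Their log2 differences of cDC2 minus cDC1 were -0.52 (SE 0.182, limma adjusted p = 0.0738) and 0.39 (SE 0.206, adjusted p = 0.247), and neither passed. Bhlhe40, a transcription factor of activated dendritic cells, led 2 adjacent windows, with 9 to 14 and 8 to 11 summits in cDC2 and 7 and 5 to 8 in cDC1. Their differences of 0.57 (SE 0.194, adjusted p = 0.0653) and 0.46 (SE 0.189, adjusted p = 0.131) did not pass either.

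The sites within the 500 windows were shared by more libraries than those elsewhere, as partly follows from choosing windows by their mean over all libraries. Of 6398 sites, 39.1% were found in all 8 libraries and 14.4% in a single library, compared with 25.6% and 24.9% of the sites in other windows. The overlap of 2 libraries, as shared sites over sites in either (the Jaccard index), averaged 0.757 within a group, 0.747 between genotypes of a subset and 0.646 between subsets. In other windows these means were 0.668, 0.653 and 0.51. In both sets of windows, the overlap was lowest between subsets.

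**Figure D2:**
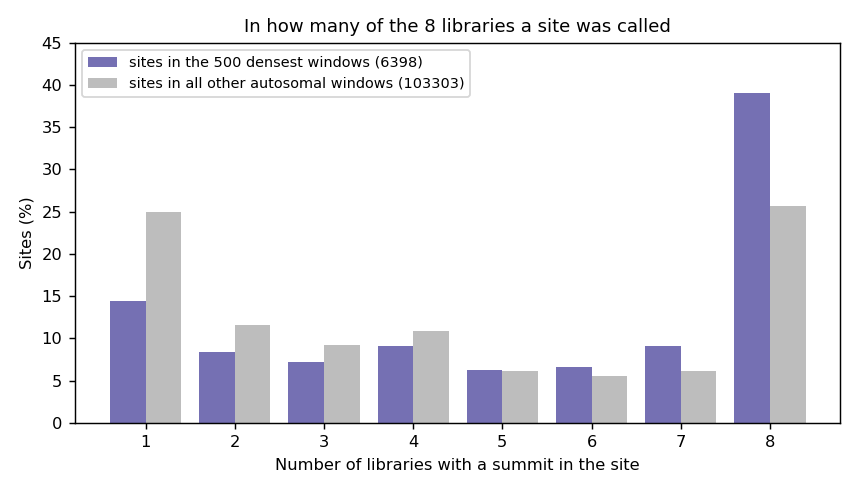
Share of sites (y axis, percent) by the number of the 8 libraries with a summit in the site (x axis). Purple bars are sites in the 500 densest windows and grey bars those in all other autosomal windows. Sites in all 8 libraries made up 39.1% in the 500 windows and 25.6% elsewhere.

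Of 579 sites in the 500 windows that were found in exactly 4 libraries, 326 (56.3%) were found in all libraries of one subset and none of the other, of which 127 were in cDC2 and 199 in cDC1. Elsewhere this was 63.2% of 11181 sites. By genotype the split was rare in both, with 9 of the 579 sites (1.55%), 7 in KO and 2 in WT, and 1.39% elsewhere. Sites of one subset only were found in 227 of the 500 windows, with 110 holding one of cDC2, 154 one of cDC1 and 37 both. The same count is not given for the other tested windows, which held a median of 4 sites, compared with 13 in the 500. Within 1 kb of a start, 1.09% of sites in the 500 windows were in cDC2 only and 0.816% in cDC1 only, compared with 2.17% and 3.59% of sites farther away. The order was the same in other windows, with 0.926% and 0.894% near a start and 2.70% and 5.03% farther away.

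The first comparison, cDC2 minus cDC1, asked which of the dense windows held more summits in one subset. In bulk libraries such as these, a site open in fewer cells and a site less open in each cell cannot be told apart. Of the 500 windows 9 passed (limma, adjusted p under 0.05), 3 higher and 6 lower in cDC2. This is 1.8%, with 13.6% of all tested windows called, 6.27% higher and 7.37% lower. The median size of the log2 difference was 0.13 in the 500 windows and 0.25 in the other tested windows. A change of 1 summit moves the log2 value more where counts are low, so these sizes are not directly comparable. In the 30868 best summits of each library the order turned, with 0.20 in the 500 windows and 0.16 in the others. In the lists of equal length, 243 differences of the 500 windows were above 0 and 253 below. With all deposited summits, whose lists were mostly longer in cDC1, 0 of the 500 were called higher in cDC2 and 7 lower, with 1.86% of all tested windows higher and 10.4% lower. The variance model weighed on this count. When the variance was allowed to follow the mean, an alternative chosen after seeing the data, 81 of the 500 passed, 37 higher and 44 lower, or 16.2%, with 18.7% of all tested windows called. All 9 passed in that fit too. Libraries of the subsets did not overlap in 23 windows higher in cDC2 and 30 lower, or 10.6%, with 11.9% of all tested windows not overlapping.

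The strongest difference was in the window led by Irf8, which encodes the factor that cDC1 require (chromosome 8, 120750001 to 120800000). This window overlaps part of the gene and extends downstream of it. The window held 6 and 5 summits in KO cDC2, 5 and 4 in WT cDC2, 10 and 11 in KO cDC1, and 12 and 10 in WT cDC1. Every cDC2 library was below every cDC1 library. The means were 5.00 ± 0.816 in cDC2 and 10.8 ± 0.957 in cDC1 (SD, n = 4 each), at a log2 difference of -0.98 (SE 0.187, limma adjusted p = 0.00288), which passed in all 18 alternatives run on this window.

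Of 14 sites in the Irf8 window, 2 were found in every cDC1 library and no cDC2 library, at 120774688 to 120774809 and 120779226 to 120779340. They lay 38.4 and 42.9 kb downstream of the most upstream Irf8 start site. The sites 27.1, 41.0 and 60.0 kb downstream were found in all 8 libraries. The sites at 32.4 and 56.5 kb were each found in 7 libraries, the first in all but WT cDC2 replicate 2. Enhancers that act in dendritic cell development are known in this stretch downstream of mouse Irf8. No site of the window was in cDC2 alone.

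The largest difference in favour of cDC2 was in the window led by Prss16, which encodes a serine protease of the thymus (chromosome 13, 22000001 to 22050000). The window also holds 5 histone genes and 6 tRNA genes. It held 13 and 14 summits in KO cDC2, 11 and 13 in WT cDC2, 6 and 6 in KO cDC1, and 6 and 7 in WT cDC1. The means were 12.8 ± 1.26 in cDC2 and 6.25 ± 0.5 in cDC1 (SD, n = 4 each), at a log2 difference of 0.92 (SE 0.182, limma adjusted p = 0.00378). The sites at the histone promoters were found in all 8 libraries, among them the one at the promoter of H2bc11 printed above. Sites in every cDC2 library and no cDC1 library lay at 22001534 to 22001589 and 22040765 to 22040895. The second of these was within 1 kb of the start site of the histone gene H4c9, at 22041362. As in the other histone clusters, single summits are uncertain here, since the counting of reads that map to several copies is not given.

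The Prss16 difference was not seen among the summits of highest score. In the 30868 best summits of each library the window held 7 and 6 in KO cDC2, 5 and 3 in WT cDC2, and 5 in every cDC1 library, a log2 difference of 0.01 (limma adjusted p = 1). With all deposited summits the difference was 0.38 (adjusted p = 0.259). The Irf8 difference was -0.73 (adjusted p = 0.023) with the best summits and -1.10 (adjusted p = 0.00257) with all.

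**Figure D3:**
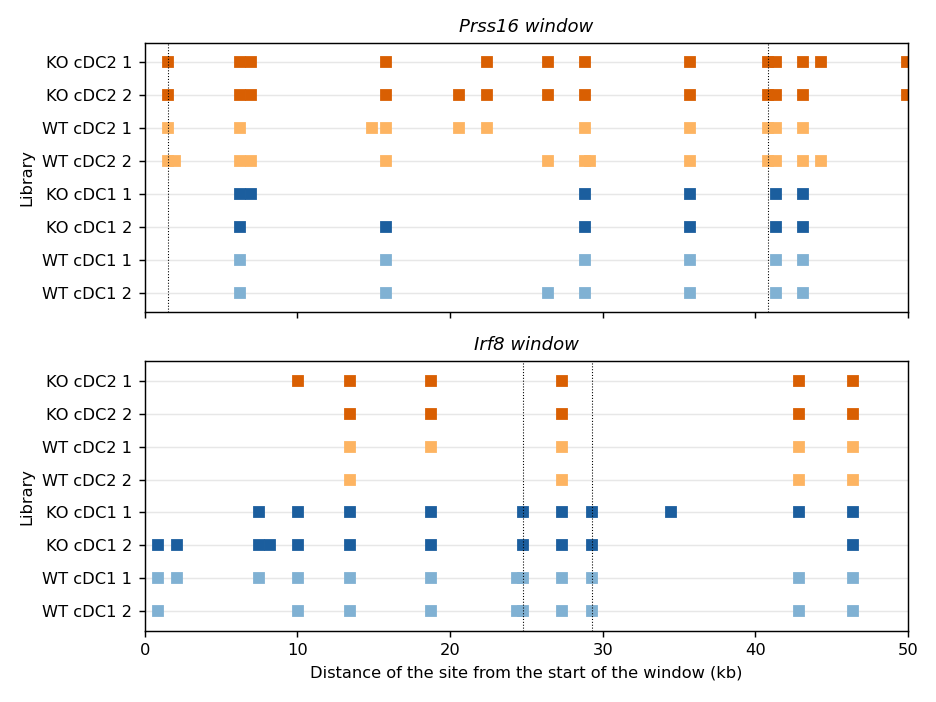
Sites with a summit (squares) in each library (y axis) by distance from the window start in kb (x axis), for the Prss16 and Irf8 windows. Dotted lines mark sites in every library of one subset and none of the other. The Irf8 window held 4 to 6 summits in each cDC2 library and 10 to 12 in each cDC1 library.

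The other 2 windows that were higher in cDC2 were led by Timm8a2, a mitochondrial import gene, and Pip4k2a, a phosphoinositide kinase. The Timm8a2 window held 10 summits in every cDC2 library and 6, 7, 7 and 5 in cDC1, at a log2 difference of 0.61 (SE 0.188, limma adjusted p = 0.0435). It overlaps no protein-coding gene, and its sites lay 18.4 to 46.8 kb from the Timm8a2 start site. The Pip4k2a window held 10, 9, 10 and 9 in cDC2 and 6 in every cDC1 library, at 0.58 (SE 0.18, adjusted p = 0.0441). Neither window's subsets overlapped. A site of cDC2 alone lay 21.8 kb downstream of the Pip4k2a start.

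Among the windows that were lower in cDC2, the Zmynd15 window (chromosome 11, 70450001 to 70500000) also holds Cxcl16, the ligand of the chemokine receptor CXCR6. It held 7, 5, 6 and 5 summits in cDC2 and 10 in every cDC1 library, at a log2 difference of -0.72 (SE 0.188, limma adjusted p = 0.0203), with 3 sites of cDC1 alone. The Ttc39a window held 7, 5, 5 and 6 in cDC2 and 11, 9, 9 and 10 in cDC1, at -0.68 (SE 0.192, adjusted p = 0.0285). The subsets did not overlap in either.

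The window of Tiam1, which activates the GTPase Rac, held 6, 6, 7 and 7 summits in cDC2 and 10, 9, 11 and 11 in cDC1, at a log2 difference of -0.58 (SE 0.179, limma adjusted p = 0.0435). One of its 2 sites of cDC1 alone lay 150 bp downstream of a Tiam1 start site. The Specc1l window, of a gene for a cytoskeletal protein, held 5, 5, 7 and 7 in cDC2 and 10, 9, 9 and 10 in cDC1, at -0.60 (SE 0.18, adjusted p = 0.0395). The Pdhx window, named for a gene for a subunit of the pyruvate dehydrogenase complex, held 5, 6, 7 and 6 in cDC2 and 9, 9, 10 and 10 in cDC1, at -0.59 (SE 0.182, limma adjusted p = 0.0441). It overlaps no protein-coding gene, and its sites lay 74.2 to 118.1 kb from the Pdhx start site. In each of these 3 windows every cDC2 library was below every cDC1 library.

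**Figure D4:**
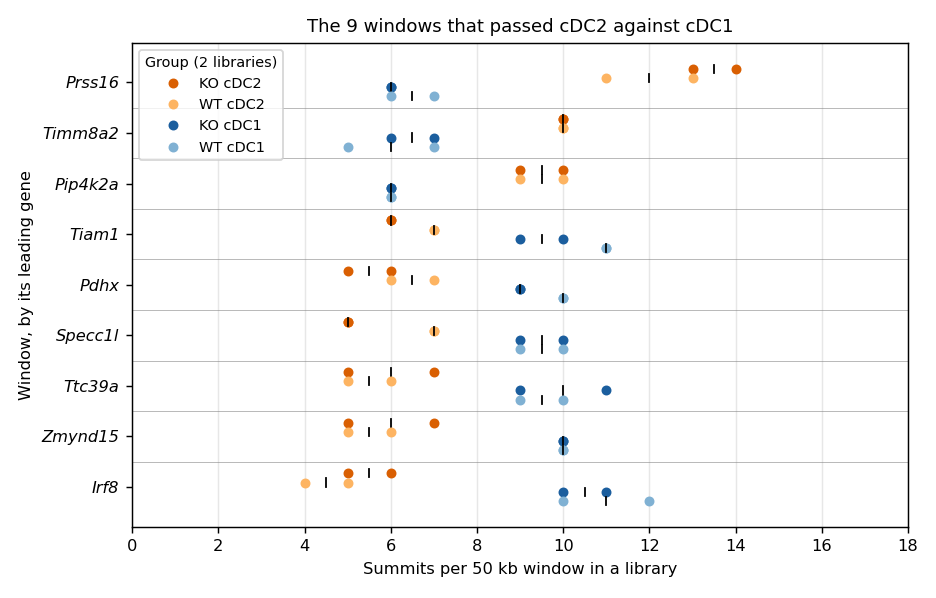
Summits per 50 kb window (x axis) in each library for the 9 windows that passed cDC2 minus cDC1, named by their leading genes (y axis, italic). Points are libraries, 2 per group, and black ticks are group means. No cDC2 library overlapped a cDC1 library in any of the 9 windows.

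Apart from Irf8 and Prss16, the adjusted p-values of the called windows lay between 0.0203 and 0.0441, and these 7 calls were lost with no filter on low windows. With 0.5 in place of 1 added before the logarithm, all but that of Zmynd15 were lost. Leaving out any 1 of the 8 libraries ended the call of Pip4k2a, Pdhx, Specc1l and Tiam1, and leaving out any but WT cDC1 replicate 1 ended that of Timm8a2. The call of Ttc39a was lost without KO cDC2 replicate 2, WT cDC2 replicate 1, KO cDC1 replicate 1 or WT cDC1 replicate 2, and that of Zmynd15 without KO cDC2 replicate 2 or WT cDC2 replicate 2. The calls also moved with the length of the lists. With the best 30868 summits the log2 difference was -0.07 for Pdhx (adjusted p = 1), -0.13 for Tiam1 (adjusted p = 0.908), 0.17 for Timm8a2 (adjusted p = 0.799) and -0.51 for Ttc39a (limma adjusted p = 0.0878). With all deposited summits it was 0.14 for Pip4k2a (adjusted p = 0.725), 0.30 for Timm8a2 (adjusted p = 0.438), -0.56 for Pdhx (adjusted p = 0.101) and -0.54 for Specc1l (limma adjusted p = 0.0807). Of the 9 windows, those of Irf8 and Zmynd15 passed with either list. Within KO alone 1 of the 500 windows passed, that of Prss16 (log2 difference 1.05, SE 0.258, limma adjusted p = 0.0362), with 3.32% of all tested windows called. Within WT alone 1 passed, that of Irf8 (-1.13, SE 0.264, adjusted p = 0.02), with 5.57% called. The KO call was lost without any 1 of the 4 KO libraries, and the WT call without WT cDC2 replicate 2 or WT cDC1 replicate 1. In WT the Prss16 difference was 0.79 (SE 0.258, adjusted p = 0.0927), and in KO the Irf8 difference was -0.83 (SE 0.264, adjusted p = 0.112). The test of the difference between genotypes gave adjusted p = 1 for both.

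Of the windows led by listed genes, only that of Irf8 passed. The 8 windows of pan-cDC and MHC class II genes ranged from -0.54 to 0.57 (median 0.11), the 14 of transcription factors from -0.52 to 0.52 (median 0.09), the 7 of costimulation and checkpoint genes from -0.29 to 0.20 (median -0.04) and the 4 of AP-1 genes from -0.47 to 0.12 (median -0.01). The median over all tested windows was 0. The transcription factor window with the highest difference was that of Runx3, with 11, 9, 11 and 11 summits in cDC2 and 7 in every cDC1 library (0.52, SE 0.181, limma adjusted p = 0.0719). That window overlaps no protein-coding gene.

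The second comparison, KO minus WT, asked whether the dense windows differed with the Mx1-Cre genotype. None of the 500 passed over both subsets (limma, adjusted p under 0.05), with 0.0209% of all tested windows called, and 2 had an unadjusted p under 0.05. None passed in cDC1 or in cDC2 alone, where 0% of all tested windows were called, and 1 and 0 had an unadjusted p under 0.05. None passed with the variance trend, with 0.193% of all tested windows called over both subsets. Differences ran from -0.42 to 0.30 with a median of -0.03, and 297 were below 0 and 201 above. This lean turned with the lists used. With all deposited summits 359 were above 0 and 140 below, with a median of 0.07 in the 500 windows and 0.10 over all tested windows, and after cyclic loess normalization of the log2 values between libraries 247 were above and 253 below. In the lists of equal length the median over all tested windows was 0, and the median SE in the 500 windows was 0.186. A p that misses the threshold does not show that KO and WT libraries were alike.

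In 11 of the 500 windows the KO and WT libraries did not overlap, 5 higher and 6 lower in KO, which is 2.2%, with 0.61% of all tested windows not overlapping. It was 0.874% of the 2173 other tested windows with a mean of at least 5 summits. Libraries tie more often where counts are low, so these shares are not set at like counts. Whether 2.2% is more than an arbitrary split of the libraries would give was not tested. The 11 windows are named because of this pattern. The lowest in KO was that of Sit1, a lymphocyte signalling adaptor, with 10, 9, 9 and 9 summits in KO (cDC2 before cDC1) and 12, 14, 12 and 13 in WT, at -0.42 (SE 0.181, limma adjusted p = 0.769). With the variance trend its adjusted p was 0.0521.

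The windows of Arid1b, a subunit of the BAF remodelling complex (5 to 8 in KO and 9 to 10 in WT), Itpr1, a calcium channel of the endoplasmic reticulum (5 to 7 and 8 to 9), Frmd4b (8 to 9 and 10 to 12), Ier5 (9 to 11 and 12 to 15) and Arhgap18 (8 and 9 to 10), were also lower in every KO library. Those higher in every KO library were led by Ccnd3, which encodes cyclin D3 (10 to 13 in KO and 8 to 9 in WT), Coa7 (8 to 9 and 6 to 7), Eif2ak3, the stress kinase PERK (8 to 9 and 7), Ninj2 (9 to 10 and 8) and M1ap (10 and 8 to 9). Their limma adjusted p-values ranged from 0.769 to 1.

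**Figure D5:**
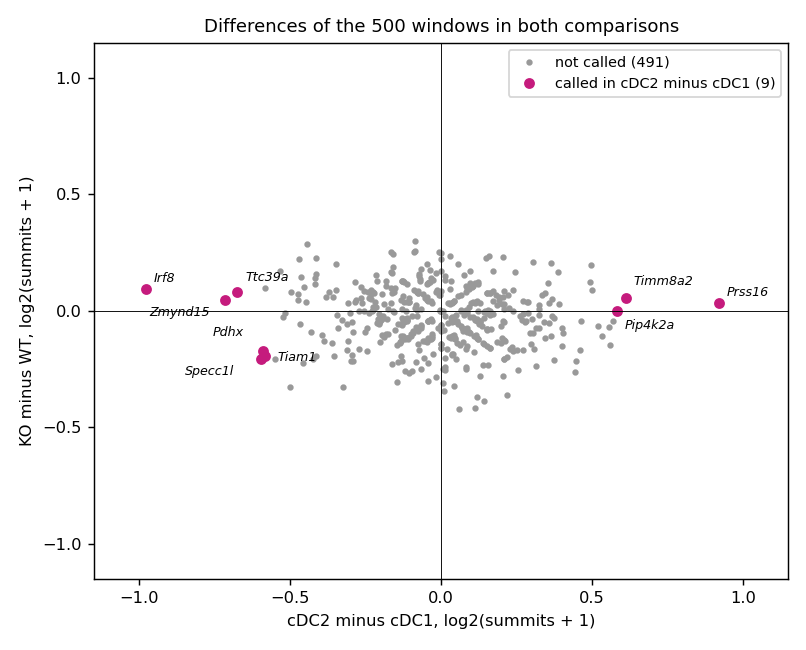
Log2 differences of cDC2 minus cDC1 (x axis) and KO minus WT (y axis) in summits plus 1 for the 500 windows. Points are windows, and the 9 that passed cDC2 minus cDC1 are pink with their leading genes. The x axis values run from -0.98 to 0.92 and the y axis values from -0.42 to 0.30.

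The difference between the genotype effects of cDC2 and cDC1 passed in none of the 500 windows, with 0% of all tested windows called, and 1 had an unadjusted p under 0.05. With the variance trend none passed either. Among listed genes, KO minus WT ran from -0.17 to 0.17 in the MHC class II and pan-cDC windows, -0.25 to 0.13 in those of transcription factors, and -0.17 to 0.22 in those of AP-1 genes. In the H2-Aa window it was -0.01 (SE 0.191, adjusted p = 1) and in the Fosb window -0.17 (SE 0.181, adjusted p = 1).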

How the data were processed

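For each of the 8 libraries the authors deposited a list of summits with a score, the −log10 of a p- or q-value given to each peak in its own library. Per the submitters' processing notes, Bowtie2, SAMtools, MACS2 and MultiQC were used with the GRCm38 (mm10) build. Versions, filters and settings are not given in the sources used here. The scores, which follow depth, served only to rank summits.

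Summits were counted per 50 kb window (Python 3.11.15, pandas 2.3.3) from lists cut to 61737. Log2(summits + 1) was fitted with limma 3.58.1 in R 4.3.3, with a mean for each group and 7 contrasts, over 19182 windows with a mean of at least 1. The rounding variance of a whole number was added to the residual variance. The fit was also run on simulated windows with sites drawn independently in each library, which cannot check the spread among real libraries. P-values were adjusted by Benjamini-Hochberg over all tested windows, with a threshold of 0.05. A log2 difference is one in called peaks, not reads, and is smaller than the fold change where counts are low.

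Genes were assigned at most 50 kb from the gene span, from 21887 protein-coding genes of GRCm38.p6. Start sites and promoters came from the RefSeq promoter table, and a genome sequence was not used here. Named windows are the 12 of highest mean, up to 8 called per direction and contrast, up to 4 per gene list and 3 on each side of the border. Others were named after their values were seen. The windows, the 24 gene lists and the rules were chosen with earlier results of these data known. The result of 1 list is not reported here. Alternatives changed the list length, the grid, the added value, the filter, the scaling, the variance, the samples fitted, the replicate block and the chaining distance.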

Additional observations from a re-analysis of the deposited data

How the results depend on the processing

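The count of 9 windows for cDC2 minus cDC1 became 3 with 0.5 added before the logarithm, 2 with no filter on low windows, 31 with the filter set at a mean of 3, 43 with the best 30868 summits, 39 with plain limma, 35 with trend and robust variance, 81 with the rounding variance and a trend, and 2 to 6 when a library was left out. Within KO the count of 1 became 0 with 0.5 added, with no filter, with all summits and with the grid shifted by 25 kb, 3 with the mean of at least 3, 8 with the best summits, 16 with plain limma, 11 with trend and robust variance, 20 with rounding and trend, and 0 to 1 without a library. Within WT it became 0 with no filter and with the shifted grid, 6 with the mean of at least 3, 10 with the best summits, 13 with plain limma, 11 with trend and robust variance, 44 with rounding and trend, and 0 to 1 without a library. For KO minus WT the count of 0 became 1 with the best summits, 1 with plain limma and 2 with trend and robust variance over both subsets. It became 2 and 2 in cDC1 with the last-named variances, and in cDC2 1, 2 and 3 in the order given for both subsets. The interaction count became 1 with plain limma and 2 with trend and robust variance. It stayed at 0 in every fit without a library. The cause of these changes was not tested.

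Same-numbered libraries did not deviate together over the tested windows (correlations of -0.02 to 0.03). With the replicate block, 5 of the 500 windows passed cDC2 minus cDC1, and no other count among the 500 changed. Over all tested windows the block moved the calls from 637 to 1389 within KO, from 1068 to 1813 within WT, and from 4 to 95 for KO minus WT. That genotype difference went from 0 calls to 104 among cDC2 libraries and to 112 among cDC1 libraries, and its interaction with subset from 0 to 18.

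The choice of windows moved with the lists: 438 of the 500 were chosen again from all deposited summits, 311 from the best summits, and 291 overlapped one chosen on the shifted grid. The share of summits in the windows was 6.98% ± 0.189 (SD, n = 8) and became 6.48% with all summits and 7.90% with the best. Sites in all 8 libraries made up 31.3% and 46.6% at chaining distances of 100 and 500 bp. Depth is not given, so a window without a difference may hold one in reads.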
